A study of Mus musculus with 6 samples.

Results

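Il2rg encodes the common gamma chain, a subunit shared by the receptors of several lymphocyte cytokines. It was examined in CT26 mouse colon carcinoma cells together with Il4ra, Il7r, Il13ra1, Il15ra, Il15, Il21r and Jak3. These 8 genes, of 53801 in the tables, were matched by symbol. The set was chosen by its normalised counts in line B64, where Il2rg was lost relative to the parental line, so all B64 values of the 8 genes are given as descriptions, without a test. The rule set no threshold. RNA-seq was performed on 6 libraries, 2 from each of 3 lines. The parental line was bulk CT26 cells, recovered from tumors in Balb/c mice so that engraftment had acted on it as well. Lines B04 and B64 were each grown from a single cell of an engrafted tumor and labelled resistant, so each stands for 1 clone. Their barcodes had been enriched under anti-PD-1 and anti-CTLA-4. The paper also transplanted both lines and reported that their tumors persisted under the 2 antibodies combined, while parental tumors shrank. Cells of all 3 lines carried a ClonTracer barcode and had been selected with puromycin. The labels give no treatment. The sample titles speak of tumors, whereas the methods describe cultured lines.

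The gamma chain does not bind a cytokine on its own. It joins the receptors for IL-2, IL-4, IL-7, IL-9, IL-15 and IL-21, where the kinase JAK3 sits on its tail and JAK1 on the tail of the partner chain, and both act on STAT proteins. It is best known from lymphocytes, and its loss in humans causes X-linked severe combined immunodeficiency. Outside the blood lineage IL-4 can also signal through a receptor of IL-4Rα and IL-13Rα1, which needs no gamma chain. IL-15 is unusual in being presented by IL-15Rα on one cell to the receptor of another.

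Libraries held 19409204 to 23472012 expected counts. Leukocyte markers were checked because Il2rg is a gene of blood cells. The pan-leukocyte gene Ptprc did not exceed 1 count in any library. Of 7 T cell markers, 6 had at most 3 counts in every library, with only Lck above (34 to 76 counts), and all 5 NK cell markers were at or below 3 counts. Of 4 B cell markers, 3 had at most 3 counts, and Cd79a had 14 or fewer. The 8 myeloid markers summed to between 23.5 and 25.4 TPM in parental cells, 33.4 and 34.0 TPM in B04 cells and 60.1 and 60.2 TPM in B64 cells. Nearly all of this was Cd14 and Cd68, while Adgre1, Csf1r, Itgam, Itgax and Flt3 had at most 4 counts and Lyz2 at most 11. The myeloid sum was thus highest where Il2rg was lowest. Between the clones Cd14 overlapped, and Cd68 was at 39.62 and 36.06 TPM in B64 beside 11.99 and 10.08 in B04. Lck (34 and 43 counts) and Cd79a (0 and 0) went the other way, with their lowest counts in B64, although Lck overlapped between lines in TPM. What part these markers had in the Il2rg values was not tested. The colon epithelial markers Epcam, Cdh1 and Vil1 had at most 2 counts, Krt8 had 4 to 16 and Krt18 had 290 to 490. The colon label thus rests on the name of the line and not on these genes. Vim, also in this marker list, had 43166 to 89185 counts. Cdx2, a colon transcription factor, had 35 and 24 counts in the parental libraries and 0 in all 4 clone libraries.

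Il2rg (ENSMUSG00000031304, mm10 chromosome X, 101264378 to 101268255, minus strand, protein coding) was expressed in the parental line, highest in B04 and nearly absent from B64. The parental libraries had 282 and 276 expected counts, the B04 libraries 648 and 540, and the B64 libraries 5 and 10. On the scale of normalised counts, which are divided by a library's size factor, these were 269.0 and 258.1 in the parental line, 591.0 and 549.7 in B04, and 5.7 and 10.5 in B64. The libraries of the 3 lines did not overlap, with B04 highest and B64 lowest. B64 held 3.1% of the parental level, with an exact 95% interval of 1.73% to 5.16%, and 1.43% of the B04 level, with an interval of 0.798% to 2.37%. These intervals cover counting error only and are no test, because Il2rg was chosen for its level in B64. The DESeq2 log2 fold change was -5.01 (SE 0.41) in B64 relative to the parental line and -6.13 (SE 0.41) relative to B04. RNA from a bulk sample cannot tell fewer expressing cells from less RNA per cell, in B64 as in the parental mixture.

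The libraries differed in fragment length, read here as the median gap between deposited gene length and effective length. Parental replicates A and B measured 277.3 and 276.6 bases, those of B04 271.8 and 225.2, and those of B64 220.8 and 246.2. B04 replicate B, with short fragments like B64, had 549.7 normalised counts of Il2rg. Gm20489, an overlapping gene model, spans Il2rg on the same strand (chromosome X, 101261405 to 101269023) and had 0 counts in all 6 libraries.

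In B04 Il2rg rose, but this comparison is not independent of the choice of the gene. The rule picked Il2rg for its loss in B64 by comparing the libraries of all lines, B04 included. The log2 fold change of Il2rg in B04 over the parental line was 1.11 (SE 0.18, DESeq2 adjusted p = 1.18e-08), and both B04 libraries lay above both parental libraries. The parental libraries are the same as those in the comparison that chose Il2rg. Among all genes tested in this comparison 24.1% were called, at an adjusted p under 0.05, and 11.2% were called higher. Of the 8 genes, 6 passed the filter on low counts and were tested, and Il2rg alone was called. The edgeR test also called Il4ra. The median log2 fold change of the 6 in B04 was 0.54, beside 0.0 over all genes tested. This median was not tested. It takes in Il2rg itself and the low-count genes Il15ra, Il15 and Il13ra1, with SEs of 0.76, 0.84 and 0.76. In B64, 16.3% of all genes tested were called, 8.87% higher and 7.45% lower. No calls are counted among the 6 there, because that comparison chose the set.

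**Figure D1:**
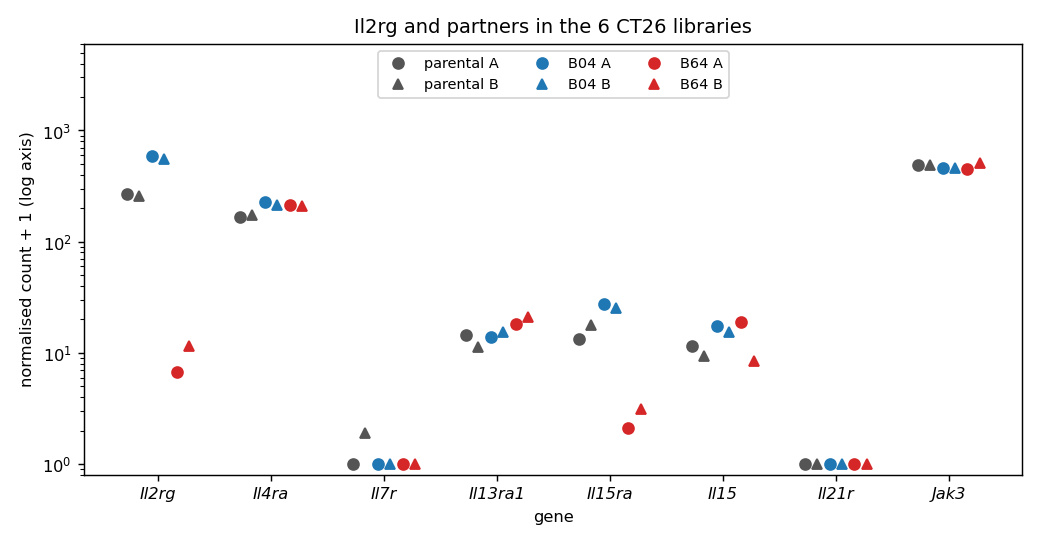
Normalised counts plus 1 (vertical log axis) of the 8 genes (horizontal axis) in each library, with colours for lines, circles for replicate A and triangles for replicate B. Il2rg was at 5.7 and 10.5 in B64 against 549.7 and 591.0 in B04, Il15ra was also lowest in B64, and Il4ra and Jak3 stayed within narrow ranges.

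Among receptor chains that pair with Il2rg, Il4ra was the most abundant. Il4ra (chromosome 7, 125552120 to 125579474) encodes the IL-4-binding chain of both IL-4 receptors. Its normalised counts were 166.9 and 174.0 in the parental line, 228.0 and 214.8 in B04, and 214.1 and 210.3 in B64. On this scale both clones lay above the parental libraries. In TPM, which takes in transcript length, the lines overlapped. The parental libraries were at 5.76 and 2.42, those of B04 at 5.01 and 5.64, and those of B64 at 6.12 and 4.74. The log2 fold change in B04 was 0.38 (SE 0.21, DESeq2 adjusted p = 0.193), with an interval of -0.03 to 0.78, and the edgeR quasi-likelihood test gave a log2 fold change of 0.38 with an adjusted p of 0.0291. In B64 the log2 fold change was 0.32 (SE 0.21). Gm44876 lies antisense within Il4ra and had 0 counts.

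Il13ra1 (chromosome X, 36112110 to 36171259), the partner of Il4ra in the receptor that lacks the gamma chain, was low in all lines. Its normalised counts were 13.4 and 10.3 in the parental line, 12.8 and 14.3 in B04, and 17.0 and 20.0 in B64. The B64 libraries were the highest, at a log2 fold change of 0.65 (SE 0.75). In B04 the value was 0.19 (SE 0.76, DESeq2 adjusted p = 0.913), with an interval of -1.3 to 1.68 that leaves the direction undetermined at these counts. Il13ra1 lies on the same chromosome as Il2rg.

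Il7r and Il21r, the private chains of the IL-7 and IL-21 receptors, were close to or at 0. Il7r (chromosome 15, 9505788 to 9530176) had 1 count in parental replicate B and 0 in the other 5 libraries. Il21r (chromosome 7, 125603429 to 125633570) had 0 counts in all 6, which allows up to 3 counts per library. No fold is given for either.

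Il15ra (chromosome 2, 11705290 to 11734317), which presents IL-15, was the other member with its lowest level in B64. It had 13 and 18 expected counts in the parental line, 29 and 24 in B04, and 1 and 2 in B64. In counts, as for Il2rg, the libraries of the lines did not overlap and B04 was the highest. In TPM, unlike for Il2rg, the B04 libraries (1.31 and 0.94) lay on either side of the parental ones (1.24 and 1.14). The 3 counts of B64 together were 11.2% of the parental level, with an exact 95% interval of 2.19% to 35.8%, and 6.42% of the B04 level (1.28% to 19.8%). Like those of Il2rg, these intervals cover counting error only, not replicate spread or transcript length. They are descriptions, because the set was chosen on its levels in B64. In B64 relative to the parental line the log2 fold change was -3.16 (SE 1.11), which moved to -4.30 with RSEM effective lengths as an offset and to -1.04 in limma on log2(TPM + 1). In B04 it was 0.80 (SE 0.76, DESeq2 adjusted p = 0.531). The direction in B04 turned when transcript length entered, at -0.16 with RSEM effective lengths as an offset and -0.05 in limma on log2(TPM + 1). The deposited length of Il15ra, the mean of its 18 transcripts weighted by their estimated abundance, ranged from 792 bases in parental replicate A to 1936 in B64 replicate A.

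Il15 (chromosome 8, 82331632 to 82403222), the cytokine itself, had 10.5 and 8.4 normalised counts in the parental line, 16.4 and 14.3 in B04, and 18.1 and 7.4 in B64. The B64 libraries lay on either side of the parental ones. The log2 fold change was 0.70 (SE 0.84, DESeq2 adjusted p = 0.647) in B04 and 0.43 (SE 0.85) in B64.

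Jak3 (chromosome 8, 71676296 to 71690575), the kinase bound to the gamma chain, was the steadiest member. Its normalised counts were 488.4 and 485.4 in the parental line, 455.1 and 460.1 in B04, and 451.9 and 514.1 in B64. The B64 libraries spanned the parental ones. The log2 fold change was -0.09 in B04 (SE 0.14, DESeq2 adjusted p = 0.745), with an interval of -0.37 to 0.19, and -0.01 in B64 (SE 0.14), with an interval of -0.29 to 0.27. Insl3 overlaps the 3′ part of Jak3 on the same strand and had 11 counts in B64 replicate A and at most 2 in the other libraries.

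To order the genes, normalised counts were divided by the deposited gene length in kilobases. In the parental line Il2rg was highest at 181 ± 3.86 per kb, followed by Jak3 at 125 ± 2.84 and Il4ra at 69.8 ± 34.4 (SD, n = 2). Lower down were Il15ra at 16.2 ± 0.772, Il15 at 8.22 ± 1.4 and Il13ra1 at 3.18 ± 0.584. In B04 Il2rg was again first, at 370 ± 20.7 per kb, ahead of Jak3 at 116 ± 0.707 and Il4ra at 89.7 ± 6.03, while Il15ra and Il15 were both at 17.3 and overlapped, above Il13ra1 at 3.64 ± 0.282. In B64 Jak3 led at 123 ± 11.9 per kb, followed by Il4ra at 92.9 ± 14.6, Il15 at 10.9 ± 6.54, Il2rg at 6.7 ± 2.49, Il13ra1 at 4.98 ± 0.569 and Il15ra at 1.06 ± 0.668. The values of Il15, Il2rg and Il13ra1 overlapped between neighbours in this order, since Il15 replicate B was at 6.3 and Il2rg replicate B at 8.5, whereas the lowest Il2rg value, 4.9, lay between the Il13ra1 values of 4.6 and 5.4. Of the genes with a count, 55.8% and 56.2% lay below Il2rg in parental replicates A and B on this scale. The share was 70.4% and 68.5% for B04 but 23.2% and 27.2% for B64. The wide error of Il4ra in the parental line came from its deposited length, which was 1773 bases in replicate A and 3830 in replicate B.

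The deposited length also described the Il2rg transcript mix. The table lists 4 Il2rg transcripts, of which the full-length coding one, Il2rg-201, has 1670 bases. The weighted length was 1461 and 1445 bases in the parental line and 1538 and 1548 in B04, so B04 lay closer to the full-length form in both libraries. The lengths in B64, 1147 and 1243 bases, rest on 5 and 10 counts.

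Il2rg and Il15ra were the members with their lowest level in B64, so their promoters are shown. The sequences are the 250 bases before the RefSeq start in GRCm38.p6, read along the gene. For Il2rg this is chrX:101268256-101268505 on the minus strand, and for Il15ra it is chr2:11705043-11705292 on the plus strand, the first of 2 start sites. Capitals mark a match to CCGGAAG, the core bound by ETS factors.
Il2rg: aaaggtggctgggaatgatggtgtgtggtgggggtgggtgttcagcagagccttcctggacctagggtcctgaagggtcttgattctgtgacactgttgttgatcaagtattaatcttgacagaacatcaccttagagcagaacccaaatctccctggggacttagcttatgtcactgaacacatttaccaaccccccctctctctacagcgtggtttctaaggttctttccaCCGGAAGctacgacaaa
Il15ra: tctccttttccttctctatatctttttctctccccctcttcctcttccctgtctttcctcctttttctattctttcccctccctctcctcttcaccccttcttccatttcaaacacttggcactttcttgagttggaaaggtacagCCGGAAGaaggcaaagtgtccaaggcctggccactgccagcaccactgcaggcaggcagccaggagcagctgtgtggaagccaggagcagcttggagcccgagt

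The match began 17 bases before the start in Il2rg and 104 bases before it in Il15ra. Both strands were searched, and 6.9% of the 32851 windows of this length in the RefSeq table held a match. The windows of Il4ra, Il7r, Il13ra1, Il21r and Jak3 and the second Il15ra window held none. Il15 had no window there and was not searched. Neither the STAT element TTCNNNGAA (7.0% of windows) nor the Sp element GGGCGG (32.7%) was found in the Il2rg window or either Il15ra window. The Sp element was found for Il4ra, Il13ra1, Il21r and Jak3, and the STAT element for Il7r. A match is a description of the letters and not a measured binding site, and any link to the B64 levels was not tested.

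To see whether the low level in B64 extended along the chromosome, genes that start within 1000 kb of the Il2rg start were measured. Of 65 annotated neighbours in the tables, 14 had a mean normalised count of at least 10. In B64 their log2 fold changes lay between -0.56 and 0.34, with a median of -0.01, while Il2rg was at -5.01. The nearest on one side was Med12, a subunit of the Mediator complex, which starts 5.8 kb away. It had 2663 and 2272 normalised counts in the parental line, 2241 and 2096 in B04 and 2031 and 1951 in B64, a log2 fold change in B64 of -0.31 (SE 0.09, DESeq2 adjusted p = 0.00569). The nearest on the other side was Foxo4, a forkhead transcription factor, 13.7 kb away, with 316 and 311 in the parental line, 458 and 386 in B04, and 398 and 397 in B64. Foxo4 rose in B04 (log2 fold change 0.43, SE 0.16, adjusted p = 0.0344) and was at 0.34 in B64 (SE 0.16, adjusted p = 0.148). In B64, 3 of the 14 were called, all lower (Med12, Ercc6l at -0.56 and Rps4x at -0.19), in a comparison where 16.3% of all genes tested were called. In B04, 3 were called, in a comparison where 24.1% of all genes tested were called. Foxo4 was higher, and Dlg3 (-0.57) and Pin4 (-0.28, DESeq2 adjusted p = 0.0499, at the threshold) were lower.

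**Figure D2:**
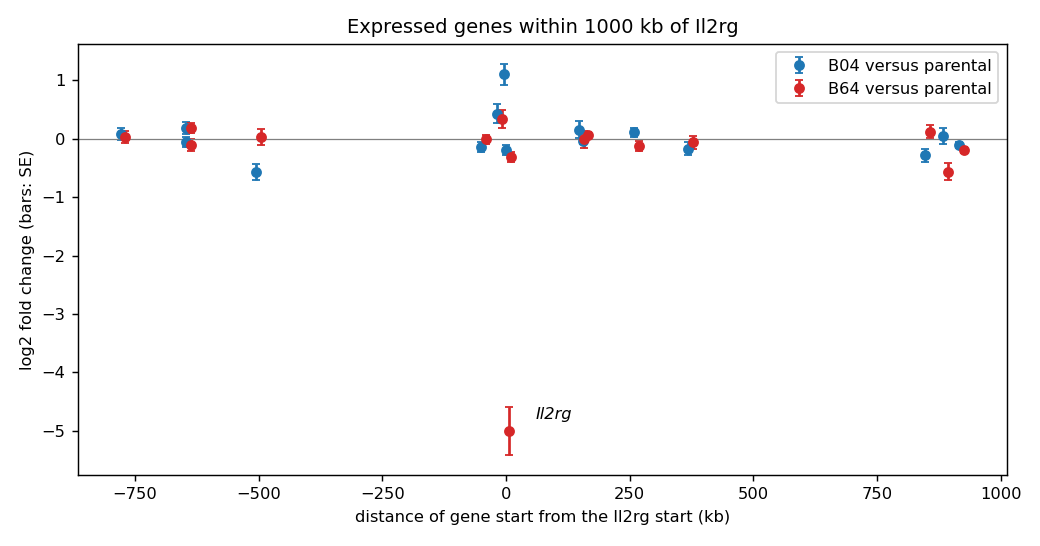
Log2 fold change against the parental line (vertical axis, bars are SE) of Il2rg and its 14 expressed neighbours by distance of their starts in kilobases (horizontal axis), with B04 in blue and B64 in red, drawn slightly apart. Il2rg at -5.01 in B64 stands below all neighbours, which lie between -0.56 and 0.34 in that line.

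The genes whose profile over the 6 libraries was closest to that of Il2rg were sought among 10474 others with a mean normalised count of at least 50. Likeness was the root-mean-square difference in log2(normalised count + 1) after each gene was centred on its own mean, for which the median gene was 2.63 away. The closest was Col3a1, a fibrillar collagen, at 0.71, followed by Glipr2 at 0.87, the hormone Fgf21 at 1.32, complement factor B (Cfb) at 1.45, the collagen Col1a1 at 1.47 and Sh3tc2 at 1.59. Col3a1 had 830 and 762 normalised counts in the parental line, 928 and 836 in B04, and 43.0 and 28.4 in B64. Glipr2 followed Il2rg in B04 as well, with 111 and 125, then 168 and 174, then 9.06 and 10.5. All 6 were lower in B64 than in the parental line, by log2 fold changes of -4.49 to -1.2, which is what the measure selects. Cfb and Sh3tc2 were higher in B04 by 2.05 and 2.17, more than Il2rg, whereas Fgf21 (0.03) and Col1a1 (-0.01) were level there. None of the 6 lies on chromosome X.

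**Figure D3:**
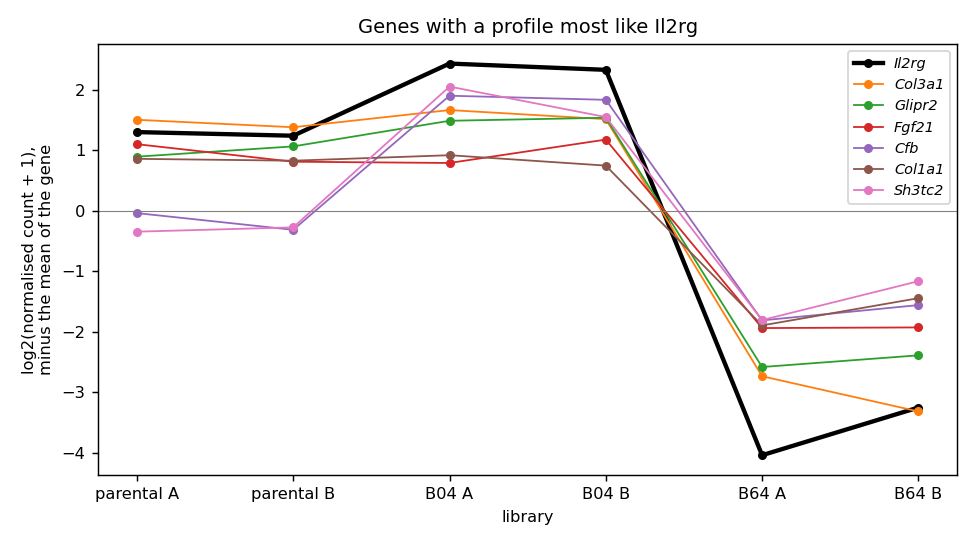
Centred log2(normalised count + 1) (vertical axis) in the 6 libraries (horizontal axis) for Il2rg in black and the 6 genes closest to it in colour. All 7 lines are lowest in the B64 libraries. Il2rg spans the widest range, from 591.0 normalised counts in B04 replicate A to 5.7 in B64 replicate A.

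The rest of the pathway was read from a list of 51 genes by role, of which 11 had 0 counts in all libraries and 33 were tested. In B04, 11 of the 33 were called (33.3%, beside 24.1% of all genes tested), 4 higher and 7 lower. In B64, 3 were called (9.09%, beside 16.3%), 1 higher and 2 lower. The median log2 fold changes were -0.05 in B04 and 0.04 in B64, beside 0.0 over all genes tested in each comparison. Neither share was tested, and both moved with the fit. With fragment-length class (long or short) as a block, 4 of the 11 calls in B04 held (Gab2, Ptpn6, Bcl2 and Bcl2l1), and 0 of the 3 in B64, where DESeq2 gave an unadjusted p under 0.05 for 3 of the 33. In limma on log2(TPM + 1), those of Pik3ca, Bcl2, Bcl2l1 and Pim1 held in B04, while in B64 those of Irs1 and Sh2b3 were lost and that of Ptpn6 held.

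Among ligands other than Il15, only Il7 was detected, the growth factor of early lymphocytes. Il2, Il4, Il9, Il13, Il21 and Tslp had 0 counts in all libraries. Il7 had 27.7 and 27.1 normalised counts in the parental line, 8.2 and 4.1 in B04, and 34.0 and 42.1 in B64. Il7 fell in B04 by 2.14 on the log2 scale (SE 0.69, DESeq2 adjusted p = 0.0108) and was at 0.47 in B64 (SE 0.59, adjusted p = 0.704). The call in B04 was lost without parental replicate A, without parental replicate B and without B04 replicate B. Of the other receptor chains, Il2ra had 0 counts in every library and Il9r at most 3. Il2rb, the signalling partner of Il2rg for IL-2 and IL-15, had 4.7 to 11.3 normalised counts, the decoy receptor Il13ra2 had 3.8 to 13.6, and Crlf2, the TSLP receptor chain that pairs with Il7r, had 312.3 to 397.5. None of these 3 was called in either clone by DESeq2 or edgeR, and none reached an unadjusted p under 0.05.

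Of the 7 kinases and STATs described, 1 was called in B04 and 0 in B64, beside 24.1% and 16.3% of all genes tested. In B64, DESeq2 gave 1 an unadjusted p under 0.05 and edgeR called 1. Stat6 had 2875.2 and 2956.3 normalised counts in the parental line, 2512.7 and 2565.0 in B04, and 2870.2 and 2827.1 in B64. Stat6, the STAT of IL-4 signalling, fell in B04 by 0.20 on the log2 scale (SE 0.07, DESeq2 adjusted p = 0.0207), a call that was lost whenever any 1 library was left out, and was at -0.03 in B64 (SE 0.07, adjusted p = 0.838). Stat5b, a main STAT of IL-2, IL-7 and IL-15, was at 0.03 in B04 and -0.05 in B64 (SE 0.11 for both). Stat5a was at 0.06 (SE 0.31) and -0.30 (SE 0.32). Stat5a and Stat5b are near-identical neighbours, so the division of reads between them is uncertain. Stat3 was at -0.26 in B04 (SE 0.11, adjusted p = 0.0551) and 0.23 in B64 (SE 0.11, adjusted p = 0.141). Jak1, the kinase of the partner chains, was at 0.08 and 0.13 in the clones (SE 0.08 for both), Jak2 at -0.16 and 0.15 (SE 0.09 for both) and Tyk2 at 0.07 and 0.27 (SE 0.15 for both). None of these 3 kinases was called against the parental line.

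Of 8 adaptors, 3 were called in B04 and 1 in B64, beside 24.1% and 16.3% of all genes tested. Irs1, an adaptor of insulin and IL-4 receptors, had 442.6 and 374.1 normalised counts in the parental line, 377.6 and 387.8 in B04, and 244.7 and 236.6 in B64. It fell in B64 by 0.76 (SE 0.17, DESeq2 adjusted p = 0.000143), which was lost without parental replicate A. In B04 Irs2 rose by 0.30 (SE 0.10, adjusted p = 0.0119), the adaptor Gab2 fell by 0.49 (SE 0.14, adjusted p = 0.00223) and Pik3ca, a catalytic subunit of PI3-kinase, fell by 0.35 (SE 0.12, adjusted p = 0.0133). All 3 calls were lost without B04 replicate A. Those of Gab2 and Pik3ca were also lost without parental replicate A, that of Irs2 without parental replicate B, and those of Irs2 and Pik3ca without B04 replicate B. Of the inhibitors, the phosphatase Ptpn6 (SHP-1) rose in both clones, with 308.1 and 347.9 normalised counts in the parental line, 498.9 and 498.8 in B04, and 584.5 and 594.0 in B64. Its log2 fold changes were 0.60 in B04 (SE 0.14, adjusted p = 0.000283) and 0.84 in B64 (SE 0.14, adjusted p = 1.61e-07). Sh2b3 (LNK), an adaptor that restrains JAK signalling, fell in both, by 0.30 (SE 0.09, adjusted p = 0.00609) and 0.42 (SE 0.09, adjusted p = 7.95e-05). The B04 call of Sh2b3 was lost without parental replicate A, without B04 replicate A and without B04 replicate B. The clones share their parental libraries, so the 2 calls of each gene are not independent. Cish, a feedback inhibitor induced by STAT5, had at most 4 counts.

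**Figure D4:**
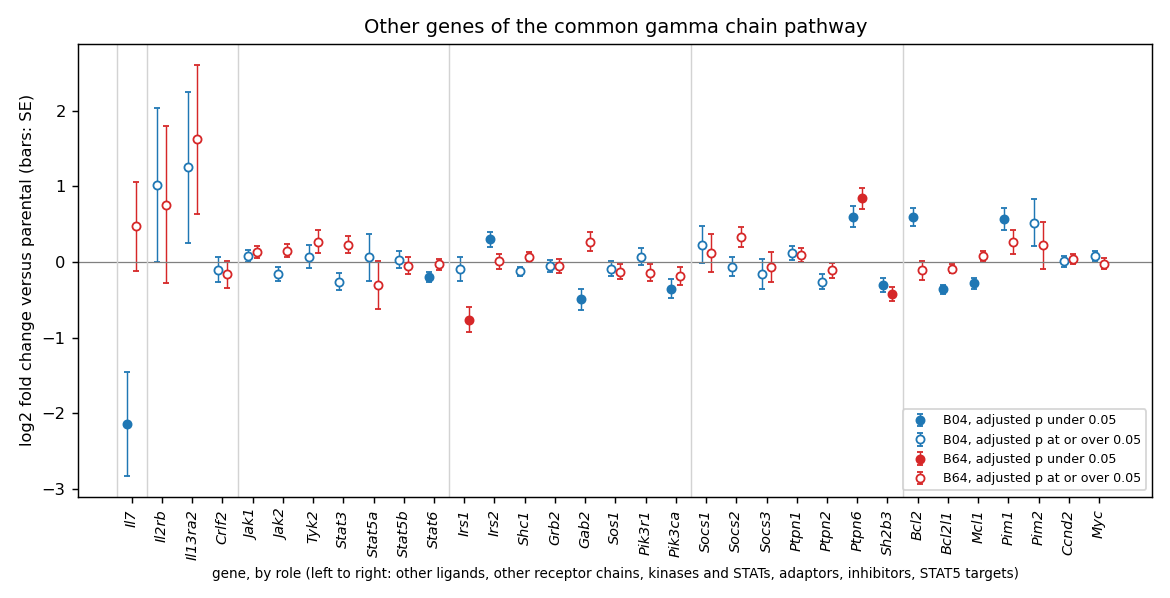
Log2 fold change against the parental line (vertical axis, bars are SE) of the 33 tested genes of the pathway list by role (horizontal axis), with B04 in blue, B64 in red and filled circles for an adjusted p under 0.05. Filled circles number 11 in B04 and 3 in B64, and Il7 in B04 at -2.14 is the lowest.

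Of 7 tested genes known as STAT5 targets, 4 were called in B04, 2 in each direction, in a comparison where 24.1% of all genes tested were called. Bcl2, which protects cells from apoptosis, had 636.3 and 592.0 normalised counts in the parental line, 876.5 and 976.1 in B04, and 599.2 and 537.2 in B64. It rose in B04 by 0.59 (SE 0.12, DESeq2 adjusted p = 2.36e-05), and the kinase Pim1 rose by 0.57 (SE 0.15, adjusted p = 0.00159). The related survival genes Bcl2l1 and Mcl1 fell in B04, by 0.36 (SE 0.06, adjusted p = 2.75e-07) and 0.28 (SE 0.07, adjusted p = 0.000317). The calls of Bcl2 and Bcl2l1 held under every alternative tried. Those of Pim1 and Mcl1 were lost without B04 replicate B, and that of Pim1 also without parental replicate B. In B64, where 16.3% of all genes tested were called, none of the 7 was called by DESeq2 or edgeR, with 0 at an unadjusted p under 0.05, while Bcl2 was at -0.11 (SE 0.13) and Myc at -0.02 (SE 0.07). Of 8 genes known as STAT6 targets, none was high enough to be tested, and Arg1, Ccl11 and Ccl22 had 0 counts throughout.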

How the data were processed

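RNA was sequenced in 6 libraries as paired reads. Per the study's methods, the authors aligned reads to mm10 with STAR and quantified genes with RSEM. The deposited expected counts are RSEM estimates per gene, with reads that match several genes shared out. The deposited TPM values were scaled by the authors' RSEM run to effective gene length and library total, and the deposited FPKM values were not used here. RSEM lengths came from the same tables. The annotation release is not stated. Of 53801 identifiers, 53706 (99.8%) matched GENCODE M21, which uses the same assembly as mm10.

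After rounding, expected counts of all 6 libraries entered 1 fit of DESeq2 (version 1.42.0, under R 4.3.3), which the study also used, with the line as its single term. A call needed an adjusted p (Benjamini-Hochberg, over all genes tested) under 0.05. Intervals of log2 fold changes are 95% Wald intervals. Alternatives used edgeR (version 4.0.16) and limma (version 3.58.1). Libraries held 19409204 to 23472012 expected counts, so genes with a few counts have wide errors. Nothing says that the 2 libraries of a line came from separate cultures, so p-values measure only the spread between these samples. Same-lettered replicates did not deviate together in every pair of lines (correlations across genes of 0.26, 0.21 and -0.12), so letters were not treated as pairs. The members and lists were chosen with earlier results of these data known. Named genes were all members, pathway genes called in either clone against the parental line, the JAKs and STATs in the list, expressed neighbours and the 6 genes most like Il2rg. A gene of the pathway list is not reported here and was left out of its counts. Others are named for their direct difference between the clones, for their 0 or low counts, or as examples of genes that were not called, after their values were seen.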

Additional observations from a re-analysis of the deposited data

Results flagged for a closer look

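When B64 was compared directly with B04 in DESeq2, 11 of the 33 tested genes of the pathway list differed (33.3%, beside 24.3% of all genes tested). In B64, 8 were higher than in B04 on the log2 scale, namely Il7 (2.62), Gab2 (0.77), Stat3 (0.49), Socs2 (0.39), Mcl1 (0.36), Jak2 (0.30), Bcl2l1 (0.27) and Shc1 (0.19). The other 3, Bcl2 (-0.71), Irs1 (-0.67) and Irs2 (-0.29), were lower. For Stat3, Jak2, Socs2 and Shc1 neither clone was called against the parental line. The members Il2rg and Il15ra stood at -6.13 and -3.96, B64 minus B04. These 2 values are descriptions outside the count, because the set was chosen on its levels in B64.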

How the results depend on the processing

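Under the 16 alternatives the log2 fold change of Il2rg was 0.98 to 1.17 in B04 and -5.54 to -3.11 in B64. The alternatives refit the same libraries. The B64 range is a description only, because Il2rg was chosen for its loss there. The B64 value of -3.11 was from limma on log2(TPM + 1), in which 1 was added to Il2rg values of 0.32 and 0.55 TPM in B64. Il15ra in B04 turned from 0.80 to -0.16 with the effective-length offset, -0.05 with limma on log2(TPM + 1) and -0.09 with limma on log2(TPM + 0.1). Il15ra in B64 moved from -3.16 to between -4.30 and -1.04. The edgeR test called 2 members in B04, against 1.

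Counts of all genes called for B04, B64 and the direct comparison were 3181, 2157 and 3118. The edgeR test gave more, at 4281, 3038 and 4201, as did a filter of at least 10 counts in 2 libraries, at 3442, 2399 and 3346. Blocking on fragment-length class gave 1596, 340 and 1625, limma on log2(TPM + 1) gave 1964, 1237 and 2043, and limma on log2(TPM + 0.1) gave 1968, 1220 and 2025. Limma on log2(TPM + 1) also moved the share of higher calls from 46.4% to 67.4% in B04 and from 54.3% to 68.3% in B64, where the fragment-length block gave 68.8%. Leaving out single libraries gave 1755 to 2577, 988 to 1772 and 1696 to 2758. A replicate block on the letters A and B gave 2655, 1716 and 2638, and pathway calls stayed at 11 and 3. Pathway calls in B04 fell from 11 to 4 with the fragment-length block and with both limma fits, and to between 4 and 10 without single libraries. Those in B64 went from 3 to 6 with edgeR and with the effective-length offset and to 0 with the fragment-length block in DESeq2, where 3 of 33 had an unadjusted p under 0.05. All parental libraries were long and all B64 libraries short in fragment length, so these cannot be told apart except through B04. Depth limits Il13ra1 and Il15, at 20 counts or fewer in every library, and Il15ra in B64, at 1 and 2. The causes of these shifts were not tested.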
